A study of Mus musculus with 18 samples.

Results

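The 50 genes described here encode parts of the pre-mRNA splicing machinery and of the SMN complex, and their RNA was measured in astrocyte, microglia and neuronal fractions of the mouse brain. They were taken from the count table by name alone: names starting with *Snrpa* to *Snrpg* or *Snrpn*, *Gemin2* to *Gemin8*, *Smn1*, *Lsm1* to *Lsm8*, names starting with *Sf3a*, *Sf3b*, *Prpf* or *U2af*, and *Eftud2*, without names of the *-ps* type. Of 35960 names in the table, counting the identifiers of transcripts without a name, 54 matched. Of these, 50 had at least 5 reads in at least 2 of the 18 libraries, and they are called members below, out of 13552 genes that passed the same filter. *Gemin6*, *Lsm1*, *Lsm5* and *Snrpert* matched by name but did not reach it.

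Brains of 10-month-old mice on a C57BL/6 background were dissociated and separated with magnetic beads, first microglia by CD11b, then astrocytes by ACSA-2, and then neurons as the cells left after labelled non-neuronal cells were removed. The 2 genotypes were wild-type (WT) mice and homozygous *Atxn2*-CAG100-KIN (KIN) littermates, in which the mouse *Atxn2* gene carries an expanded CAG repeat at its own locus in all cells, and no treatment was given. Each of the 3 fractions had 3 WT and 3 KIN libraries of panRNA-Seq, which adds a poly(A) tail to RNA and tags molecules before sequencing. The methods describe male and female same-sex pairs but do not say which replicate number belongs to which pair. The 3 fractions were taken one after another from the same brains, and the labels do not tie a library to an animal. Tests between fractions, and those over all libraries together, therefore treat libraries that share animals as independent. The p-values over all libraries together may be too small, and those between fractions may be too large or too small.

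Most introns are removed by the spliceosome, which is built from small nuclear ribonucleoproteins (snRNPs), each a small nuclear RNA with its proteins. The Sm proteins form a ring around the RNA of the U1, U2, U4 and U5 snRNPs, and the SMN complex loads that ring after the methylosome has methylated several Sm proteins. LSm proteins form the corresponding ring of U6, SF3 and U2AF proteins recognise the branch point and the 3′ splice site, and PRPF proteins and EFTUD2 act in the tri-snRNP and in the catalytic steps. Loss of SMN1 function causes spinal muscular atrophy, a motor neuron disease, and *Snrpn* encodes SmN, the form of SmB that prevails in neurons.

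The table lists reads per annotated transcript, and for *Sf3b3* and *Snrpn* those transcripts contain small RNA genes. *Sf3b3* encodes a subunit of the SF3b complex and lies at chr8:111534934-111573677 of GRCm39, on the minus strand. It held 66.8% of all member reads, with a mean of 932 reads per library, whereas the other members had means of 1.72 to 32.6 reads (median 8.44). Of its 16780 reads, 12657 were listed under ENSMUST00000212613, a retained-intron transcript at chr8:111567200-111571689 whose exon contains all 76 bases of the snoRNA gene *Gm22193*. A further 3868 were listed under the retained-intron transcript ENSMUST00000212182, whose exon overlaps 69 of the 89 bases of *Snord111*, and the protein-coding ENSMUST00000042012 had 188 reads. Both listed *Snrpn* transcripts, with 98 and 87 reads, share an exon that contains all 70 bases of *Snord107*. Which bases of these transcripts the reads cover was not analysed here. The 3 small RNA genes, all on the minus strand and read from GRCm39 with the GENCODE annotation, are printed because most *Sf3b3* reads, and all *Snrpn* reads, are listed under transcripts that hold or overlap them. Capitals mark the first TGATGA (the letters of the C box of box C/D snoRNAs) and the last CTGA (the D box) on the strand shown. Both motifs in that order occur in 24.0% of the 1505 annotated snoRNA genes of at most 300 bases.
Gm22193, chr8:111569015-111569090: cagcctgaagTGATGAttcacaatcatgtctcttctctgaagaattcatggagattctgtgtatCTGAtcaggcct
Snord111, chr8:111565160-111565248: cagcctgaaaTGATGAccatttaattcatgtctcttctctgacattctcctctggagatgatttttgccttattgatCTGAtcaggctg
Snord107, chr7:59630624-59630693: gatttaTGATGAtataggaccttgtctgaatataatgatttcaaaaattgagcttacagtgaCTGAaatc

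The depth limits what can be said of single members. Total counts per library ranged from 2118317 to 2829969 in astrocytes, 2334633 to 3296398 in microglia, 761481 to 1017972 in WT neurons and 1473194 to 2017932 in KIN neurons, so genotype and depth cannot be told apart in the neuronal fraction. In WT neurons, 23 of the 50 members had 3 reads or fewer in every library, against 2 to 7 members in each of the other 5 groups. Levels below are CPM, counts scaled to a common library total after TMM normalization over the 18 libraries, and changes were tested with edgeR's quasi-likelihood test on summed counts and Benjamini-Hochberg adjustment over all genes. A gene counts as called where the adjusted p is 0.05 or less and the level differs by 1 or more on the log2 scale in either direction. Whether groups overlap was judged on CPM scaled over the libraries of the comparison, as in its test. Against that scale, the 18-library CPM set KIN neurons higher relative to WT neurons by 0.21 on the log2 scale, and moved the genotypes of the other fractions by 0.02 or less.

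The fraction labels were checked with marker lists, as summed CPM per library. The 8 astrocyte markers ranged from 539 to 799 in WT and from 390 to 400 in KIN astrocytes, against at most 65.5 in the other fractions. The 8 microglia markers ranged from 710 to 1089 in microglia, against at most 15.4 elsewhere. The 10 neuron markers summed to 109 to 194 in neurons, but also to 41.9 to 128 in WT astrocytes, and in the neuronal libraries *Snap25*, *Syt1*, *Slc17a7*, *Nefl* and *Rbfox3* had between 0 and 10 reads each. Oligodendrocyte markers ranged from 393 to 607 in WT and from 715 to 717 in KIN astrocytes. They lay below the astrocyte markers in every WT astrocyte library and above them in every KIN astrocyte library. The second WT library of neurons stood apart with 65.5 for astrocyte and 249.9 for oligodendrocyte markers, where the other 5 neuronal libraries had at most 18.0 and 38.6. Blood markers summed to 51.9 to 229 in neurons and to at most 12.3 elsewhere.

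*Atxn2*, the gene that carries the repeat, had 32, 34 and 33 reads in WT astrocytes and 37, 19 and 19 in KIN astrocytes. In microglia it had 41, 14 and 25 against 21, 17 and 18 reads, and 3, 10 and 4 against 8, 10 and 9 in neurons. The genotypes overlapped in each fraction, with log2 fold changes of -0.25 ± 0.27 (SE), -0.56 ± 0.29 and -0.21 ± 0.53 and edgeR adjusted p of 0.63, 0.47 and 0.98. The count of *Atxn2* therefore does not separate the genotypes and cannot check the labels.

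In astrocytes, 3 members rose in KIN: *Snrpd3*, *Lsm4* and *U2af1*. Of the 47 members tested, 3 were called higher (6.38%, where 2.43% of all 11751 genes tested were) and 0 lower (6.42% of all genes). At an unadjusted p of at most 0.05, 9 members were higher (19.1%, against 10.4% of all genes) and 1 lower (2.13%, against 14.5%). The KIN libraries all lay above the WT libraries for 9 members (19.1%, against 13.4% of all genes) and all below for 0 (against 14.4%), and 2 of the 9 had no WT library with 5 reads, so that they passed the filter only through KIN. The median log2 fold change was 0.28 over the members and -0.01 over all genes, with 34 members above 0 and 13 below. Fewer cells of a type and less RNA per cell cannot be told apart in these fractions.

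Among the roles of the members, the Sm core gave a median of 0.73 over its 7 tested genes. *Snrpd3*, which encodes SmD3 (chr10:75353380-75373229, plus strand), had 11, 14 and 10 reads in WT and 21, 23 and 24 in KIN astrocytes. The level was 3.85 ± 0.707 against 9.00 ± 2.87 CPM (SD, n = 3), without overlap, a log2 fold change of 1.14 ± 0.33 (SE, edgeR adjusted p = 0.015). *Snrpd1*, *Snrpg* and *Snrpd2* were also without overlap but were not called. Among the alternatives, *Snrpd1* was called with protein-coding transcripts alone (1.64, edgeR adjusted p = 0.040) and with the replicate number as a block (1.64, edgeR adjusted p = 0.033). It was also called without WT library 2 (2.20, edgeR adjusted p = 0.013). *Snrpd1* had 2, 6 and 2 against 8, 9 and 9 reads (1.53 ± 0.55, edgeR adjusted p = 0.058), and *Snrpg* 6, 3 and 7 against 11, 7 and 15 (1.19 ± 0.46, edgeR adjusted p = 0.077). *Snrpd2* had 13, 19 and 12 against 29, 13 and 24 reads, which overlap as reads but not as CPM (0.73 ± 0.31, edgeR adjusted p = 0.12). *Snrpb* (0.14 ± 0.33) and *Snrpf* (0.03 ± 0.69) overlapped between the genotypes, and *Snrpe*, with at most 5 reads, was not tested. *Snrpn* was the one Sm gene below 0, with 31, 18 and 34 against 23, 10 and 14 reads (-0.67 ± 0.31, edgeR adjusted p = 0.16).

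**Figure D1:**
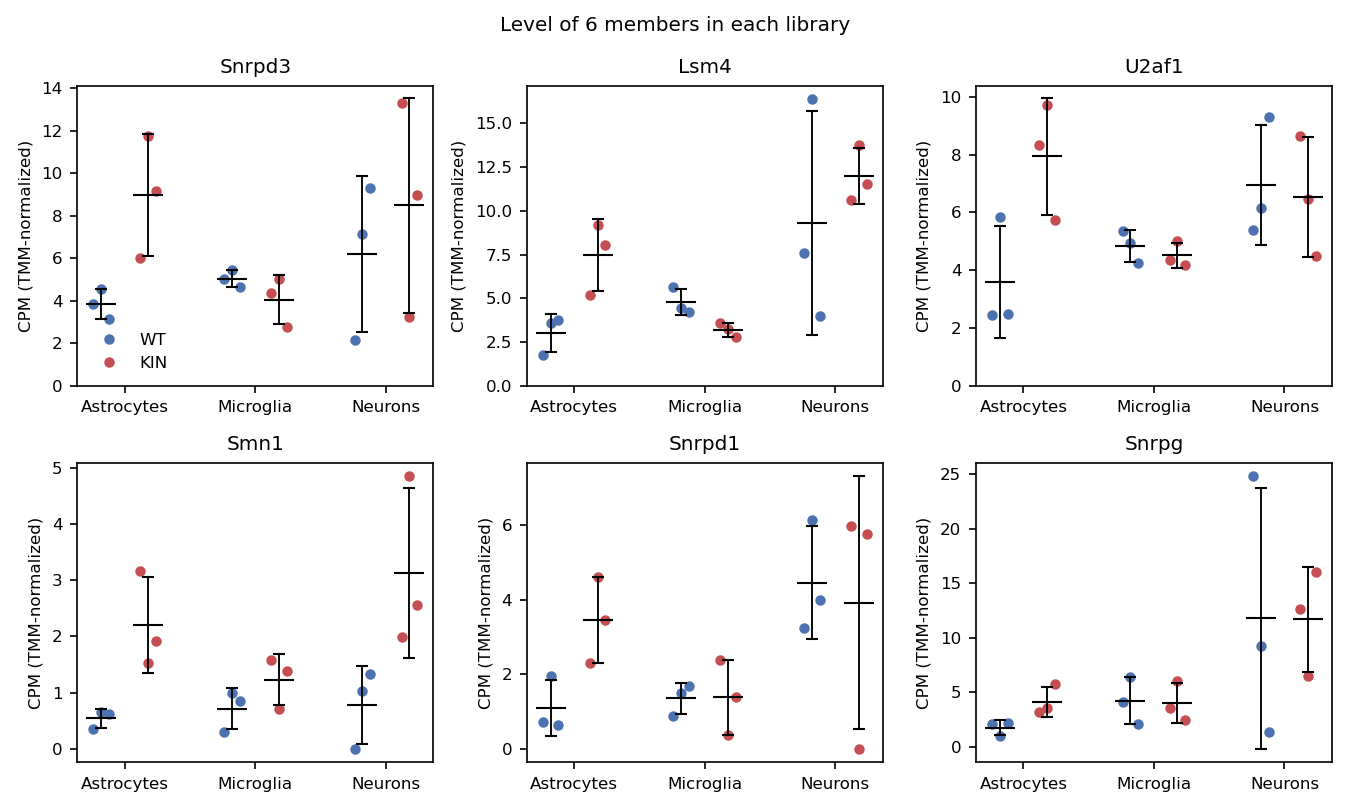
CPM of *Snrpd3*, *Lsm4*, *U2af1*, *Smn1*, *Snrpd1* and *Snrpg* in each library (points), with the mean and SD of 3 libraries (black), WT in blue and KIN in red, for the fractions on the horizontal axis. In astrocytes the KIN points lie above the WT points for 5 of the 6 genes, the exception being *U2af1*, and in microglia those of *Lsm4* lie below them.

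Among LSm genes, *Lsm4* (chr8:71125849-71135952, plus strand), a subunit of the rings on U6 and of the cytoplasmic ring that acts in mRNA decay, had 5, 11 and 12 reads in WT and 18, 18 and 21 in KIN astrocytes. Its level was 3.03 ± 1.10 against 7.47 ± 2.07 CPM (SD, n = 3), without overlap (1.21 ± 0.36, edgeR adjusted p = 0.018). *Lsm7* had 5, 14 and 6 against 18, 7 and 22 reads and was not called (1.06 ± 0.39, edgeR adjusted p = 0.068). *U2af1* (chr17:31866036-31878236, minus strand), which encodes the small U2AF subunit that binds the AG of the 3′ splice site, had 7, 18 and 8 against 29, 19 and 15 reads. The genotypes overlapped by 1 WT library, with 3.60 ± 1.94 and 7.94 ± 2.02 CPM (1.09 ± 0.35, edgeR adjusted p = 0.028).

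None of these 3 calls survived every change of the libraries or the tool. DESeq2 called 0 members in astrocytes, with adjusted p of 0.0915 for *Snrpd3*, 0.108 for *Lsm4* and 0.154 for *U2af1*, and it gave 23 of the 47 members no adjusted p. Without WT library 1 the count was 0, without WT library 2 it was 6, and without WT library 3, KIN library 2 or KIN library 3 it was 1 each. The 3 log2 fold changes stayed between 0.88 and 1.62 in these 6 fits. In the same libraries, 2 of the 6 oligodendrocyte markers were called higher in KIN, and 3 of the 8 astrocyte and 8 of the 10 neuron markers were called lower, and their part in the result was not tested.

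Of the SMN complex, *Smn1* (chr13:100261344-100274207, plus strand) had the highest log2 fold change of any member in astrocytes, with 1, 2 and 2 reads in WT and 11, 3 and 5 in KIN. The groups did not overlap, but the test did not call it (edgeR adjusted p = 0.066). Every WT library was at 3 reads or fewer, so that it, like *Gemin5*, passed the filter only through KIN. The ratio of summed reads, 19 to 5, was 4.31 after scaling, with an exact 95% interval of 1.56 to 14.8 that covers counting error only. The other members listed for the SMN complex gave, in astrocytes, 0.78 ± 0.49 for *Gemin7*, 0.67 ± 0.72 for *Gemin5*, 0.07 ± 0.32 for *Gemin8*, -0.10 ± 0.55 for *Gemin2* and -0.25 ± 0.83 for *Gemin4*. GEMIN proteins bind SMN and each other. Of the 6 tested members of this list 0 were called, near the background of 2.43% of all genes higher and 6.42% lower. *Ddx20*, which encodes GEMIN3, is not a member by name and was listed with the other snRNP proteins. It had 2, 2 and 3 reads in WT and 9, 3 and 8 in KIN astrocytes, passed the filter only through KIN and was not called. Below 0 in astrocytes, the lowest members after *Snrpn* were *Prpf4* (-0.63 ± 0.62) and *Prpf38b* (-0.50 ± 0.43), a tri-snRNP protein and a protein of the spliceosomal B complex, and both overlapped.

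**Figure D2:**
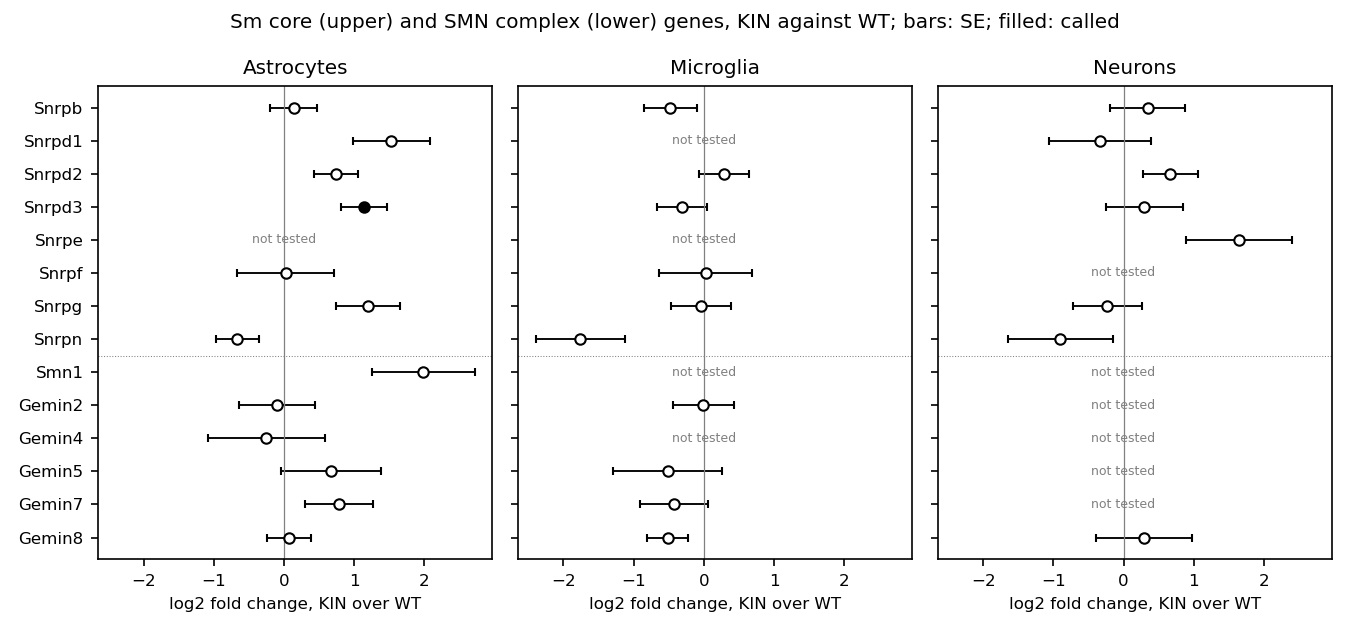
Log2 fold change of KIN over WT (horizontal axis) with its SE (bars) for the Sm core genes (above the dotted line) and the SMN complex genes (below), in 3 fractions; a filled point was called, and genes under the count filter read not tested. *Snrpd3* in astrocytes is the only filled point, and *Snrpn* lies below 0 in all 3 fractions.

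In microglia, 0 of 40 members tested were called higher and 0 lower by edgeR, where 0.739% and 0.785% of 10831 genes were. At an unadjusted p of at most 0.05, 1 was higher (6.22% of all genes) and 1 lower (5.76%), and DESeq2 also called 0, giving 38 of the 40 no adjusted p. The libraries did not overlap for 2 members higher in KIN (5%, against 8.43% of all genes) and 4 lower (10%, against 7.59%). The median over the members was -0.09, and -0.00 over all genes. The lower 4 were *Lsm4*, *Prpf40b*, *Prpf4b* and *Gemin8*, and the higher 2 were *Sf3b5* and *Prpf31*, named here after their values were seen. *Lsm4* had 19, 9 and 10 reads in WT and 9, 9 and 8 in KIN microglia (4.78 ± 0.754 against 3.19 ± 0.393 CPM, SD, n = 3), with a log2 fold change of -0.60 ± 0.37 (edgeR adjusted p = 0.58). *Sf3b5*, a small SF3b subunit, had 6, 1 and 1 against 9, 9 and 7 reads (1.55 ± 0.59, edgeR adjusted p = 0.24). *Prpf4* gave 0.89 ± 0.63, *Lsm8* 0.72 ± 0.70 and *Snrpa*, which encodes a protein of the U1 snRNP, -0.71 ± 0.53, all with overlap. The 4 members of the SMN complex list tested in microglia were all below 0 and were not called, *Gemin5* at -0.52 ± 0.78, *Gemin8* at -0.51 ± 0.30, *Gemin7* at -0.42 ± 0.49 and *Gemin2* at -0.00 ± 0.43.

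*Snrpn* had the lowest value in microglia and among the Sm genes in every fraction. It had 15, 2 and 7 reads in WT against 3, 2 and 2 in KIN libraries, so every KIN library was at 3 reads or fewer and the gene passed the filter only through WT. The summed reads, 24 to 7, gave a level 3.62 times higher in WT, with an exact 95% counting interval of 1.51 to 9.96, and the fitted change was not called (-1.76 ± 0.64, edgeR adjusted p = 0.19). Without WT library 2 of microglia, which had 2 reads, it was called (-2.11, edgeR adjusted p = 0.031). In neurons it had 6, 3 and 3 against 6, 1 and 5 reads (-0.90 ± 0.74, edgeR adjusted p = 0.970). The summed neuron markers were 127.6, 41.9 and 105.2 CPM in the WT astrocyte libraries and between 34.8 and 56.6 CPM in the KIN ones. In microglia they were 61.4, 18.8 and 46.2 CPM in WT and 10.3, 12.9 and 11.5 CPM in KIN. Within WT, the second library was the lowest of the 3 both in *Snrpn* and in these markers, in astrocytes and in microglia. The 6 neuronal libraries, with 109 to 194 CPM of these markers, had *Snrpn* at 0.809 to 6.48 CPM, below WT astrocyte libraries 1 and 3 (10.9 and 10.6 CPM). The part of neuronal RNA in the *Snrpn* values was not tested.

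**Figure D3:**
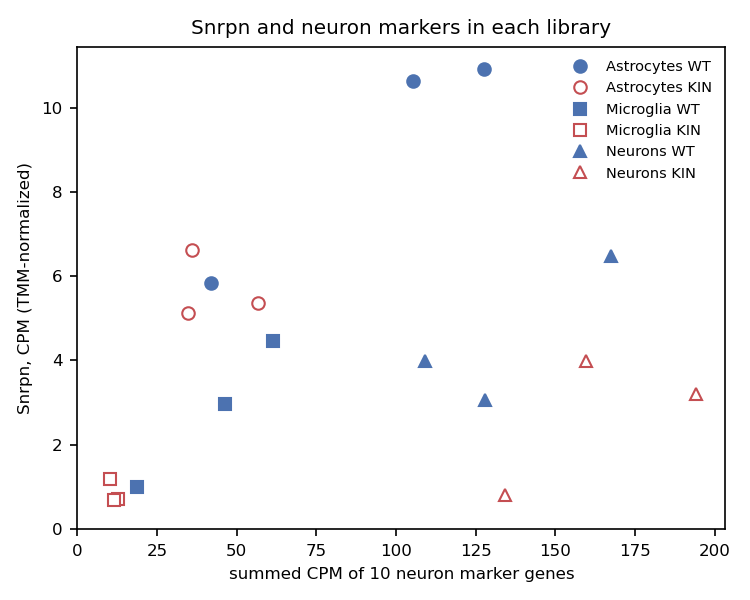
*Snrpn* in CPM (vertical axis) against the summed CPM of 10 neuron markers (horizontal axis), 1 point per library, with filled points for WT and open points for KIN and 1 symbol per fraction. The 2 WT astrocyte libraries with over 100 CPM of neuron markers have the highest *Snrpn*, whereas the 6 neuronal libraries, also over 100 CPM, lie at 0.809 to 6.48 CPM, and the 3 KIN microglia libraries, at 10.3 to 12.9 CPM of markers, are among the lowest.

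In neurons, edgeR called 0 of 32 members higher and 0 lower, and in this fraction it called 0% and 0.0148% of 6765 genes. At an unadjusted p of at most 0.05, 3 members were higher (9.38%, against 2.60% of all genes) and 0 lower (against 2.44%), and DESeq2 called 0 members. The KIN libraries all lay above the WT libraries for 6 members (18.8%, against 7.11% of all genes) and all below for 0 (against 4.46%). On the 18-library CPM these counts were 10 (31.2%, against 11.7%) and 0 (against 2.20%). However, 10 of the 32 members had no WT library with 5 reads and passed the filter only through the deeper KIN libraries, among them 4 of the 6 and 6 of the 10, so nothing is read from these counts. The members' median was 0.32 and that of all genes 0.04. *Eftud2*, the GTPase of the U5 snRNP (chr11:102728713-102771994, minus strand), had 0, 1 and 2 reads in WT and 15, 5 and 15 in KIN neurons. Its summed reads, 35 to 3, gave a ratio of 7.20 after scaling, with an exact 95% counting interval of 2.27 to 36.6 (edgeR adjusted p = 0.50 for the fitted change). *Prpf31* had 1, 1 and 0 against 7, 5 and 5 reads, and *Prpf6* 0, 2 and 1 against 10, 5 and 10, ratios of 5.25 (1.25 to 46.8) and 5.14 (1.57 to 26.6). PRPF31 and PRPF6 are proteins of the tri-snRNP, and all 3 genes had no overlap between genotypes but are among those that passed only through KIN. *Snrpe* had 2, 0 and 3 against 7, 7 and 17 reads, a ratio of summed reads of 3.83 (1.48 to 12.6), was not called (edgeR adjusted p = 0.965) and also passed only through KIN. On the other side, *Sf3a2* gave -1.21 ± 0.90 and *Snrpa* -0.77 ± 0.99, both with overlap. *Snrpd2* was higher without overlap in neurons as in astrocytes, with 9, 8 and 5 against 24, 14 and 28 reads (0.67 ± 0.39, edgeR adjusted p = 0.970).

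With all 18 libraries fitted together and the fraction as a term, edgeR called *Smn1* higher in KIN, on few reads and not under every alternative. It was 1 of 50 members called higher (2%, where 0.517% of 13552 genes were), and 0 were called lower (1.53% of all genes). The WT libraries had 1, 2 and 2 reads in astrocytes, 1, 2 and 2 in microglia and 0, 1 and 1 in neurons, and the KIN libraries had 11, 3 and 5, then 4, 2 and 4, then 3, 6 and 4. The summed reads, 42 to 12, gave a ratio of 3.33 with an exact 95% counting interval of 1.72 to 6.94, and the fitted log2 fold change was 1.58 ± 0.47 (edgeR adjusted p = 0.040). Every WT library had under 5 reads, so *Smn1* passed the filter only through KIN, and nothing is read from its share. Without a filter it was 1.59 and not called (edgeR adjusted p = 0.0549). The call was also lost in 10 of the 18 fits that left out 1 library, where the log2 fold change stayed between 1.38 and 1.74 and the adjusted p between 0.0213 and 0.156, and with DESeq2 (adjusted p = 0.0795). The 10 were WT libraries 1, 2 and 3 and KIN libraries 1 and 3 of astrocytes, WT library 1 and KIN libraries 1 and 3 of microglia, and WT library 1 and KIN library 2 of neurons. Of the 54 reads of *Smn1*, 50% were listed under retained-intron transcripts, and with protein-coding transcripts alone it had too few reads to be tested. Across the 18 libraries the lowest members were *Snrpn* (-0.88 ± 0.28, edgeR adjusted p = 0.068, and called without astrocyte WT library 2 at -1.04, edgeR adjusted p = 0.0264), *Sf3a2* (-0.40 ± 0.31) and *Lsm3* (-0.37 ± 0.50), and after *Smn1* the highest were *Sf3a3* (0.93 ± 0.50) and *Snrpe*, which had 49 against 21 summed reads, a ratio of 2.22 (1.31 to 3.89), and was not called.

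**Figure D4:**
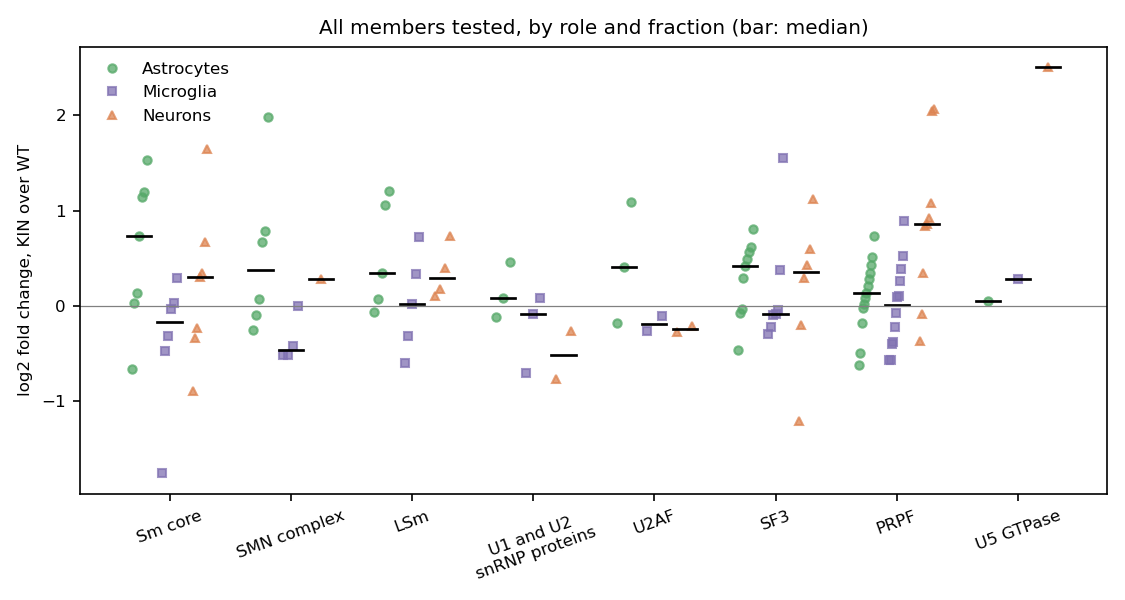
Log2 fold change of KIN over WT (vertical axis) of every member tested, grouped by role (horizontal axis), with 1 symbol per fraction and a bar at the median. In astrocytes the median of the Sm core is 0.73, in microglia -0.18, and members of 1 role spread over both sides of 0 in most groups.

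The KIN effects of microglia and astrocytes were compared as an interaction term on their 12 libraries. Of 49 members, 0 were called higher in microglia than in astrocytes and 0 lower, where 0.776% and 0.392% of 13277 genes were, and DESeq2 called 0, giving 42 of the 49 no adjusted p. At an unadjusted p of at most 0.05, 1 member was higher (2.04%, against 7.04% of all genes) and 4 were lower (8.16%, against 6.14%). The median difference was -0.50 over the members and -0.05 over all genes, and all 7 Sm genes tested were below 0. *Lsm4* had the largest difference in size, -1.82 ± 0.54 (edgeR adjusted p = 0.0715, and 0.0441 without astrocyte WT library 2). The next below 0 were *Snrpd1* (-1.48 ± 0.91) and *Snrpd3* (-1.47 ± 0.51), and the highest above 0 were *Sf3b5* (1.56 ± 0.75) and *Prpf4* (1.51 ± 0.87). The effects come from separate libraries of the same brains.

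Of the methylosome genes, 0 were called in any comparison of KIN with WT. *Prmt5*, the methyltransferase, gave -0.07 ± 0.29 in astrocytes, -0.27 ± 0.36 in microglia and 0.15 ± 0.48 in neurons. Its partner *Wdr77* gave -0.54 ± 0.38, -0.29 ± 0.35 and 0.35 ± 0.53, the chaperone gene *Clns1a* 0.20 ± 0.44 and 0.61 ± 0.43 in astrocytes and microglia, and *Strap*, which encodes an SMN-interacting protein, -0.15 ± 0.50 and -0.45 ± 0.54. In neurons *Strap* had 0, 2 and 0 reads in WT and 5, 6 and 2 in KIN, a ratio of summed reads of 4.01 with an exact 95% counting interval of 0.908 to 36.6, and was not called. Over the 37 other genes of the pathway that were listed (methylosome, other snRNP proteins, snRNA transport and SR proteins), 0 of 33 tested in astrocytes, 0 of 33 in microglia and 0 of 25 in neurons were called in either direction. Of all genes tested, 2.43% were called higher and 6.42% lower in astrocytes, 0.739% and 0.785% in microglia, and 0% and 0.0148% in neurons, so that the counts of 0 for these genes and for the methylosome in microglia and neurons lie near the background. Their medians were 0.20, -0.16 and -0.11 in the same order. In astrocytes the 5 tested genes of snRNA transport had a median of 0.78, above that of the Sm core. *Ncbp1*, a subunit of the nuclear cap-binding complex, gave 1.12 ± 0.39 (edgeR adjusted p = 0.0514) and *Tgs1*, the enzyme that hypermethylates the snRNA cap, 1.40 ± 0.71 (edgeR adjusted p = 0.21), the latter with 1, 2 and 4 reads in WT and so passing the filter only through KIN. *Ncbp2* gave 0.53 ± 0.57, *Phax* 0.78 ± 0.49 and *Kpnb1* -0.52 ± 0.31. *Ncbp1*, *Tgs1* and *Ncbp2* were higher and *Kpnb1* lower without overlap, *Phax* overlapped, and none of these 5 was called. Over all genes, 13.4% were higher and 14.4% lower without overlap, and nothing is read from a list of 5.

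Between WT microglia and astrocytes, *Snrpn* was the member that differed. Of 41 members tested, 0 were called higher in microglia than in astrocytes (12.0% of 12305 genes) and 1 lower (2.44%, against 13.1%). *Snrpn* was at 9.14 ± 2.86 CPM in astrocytes and 2.80 ± 1.74 CPM in microglia (SD, n = 3), without overlap, a difference of -1.54 ± 0.42 on the log2 scale (edgeR adjusted p = 0.0022), and it was called in each of the 9 fits without 1 library. In KIN mice the same contrast called 1 of 46 members higher (2.17%, against 17.5%) and 5 lower (10.9%, against 18.8%), *Snrpn* among them with 5.70 ± 0.807 CPM in astrocytes and 0.867 ± 0.279 CPM in microglia. The other lower ones were *Lsm4*, *Prpf19*, *Prpf40b* and *Snrpd3*, and the higher one was *Prpf38b*. DESeq2 called neither *Snrpd3* nor *Prpf38b*. The call of *Snrpd3* was also lost with protein-coding transcripts alone and without astrocyte KIN library 2 or microglia KIN library 3. The WT and KIN fits share no libraries.

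In WT neurons against WT astrocytes, 3 members were called higher (7.32%, against 6.02% of all genes) and 2 lower (4.88%, against 12.0%). The median was -0.42 over the members and -0.35 over all genes. The higher ones were *Snrpg*, *Snrpd1* and *Lsm4*. *Snrpg*, which encodes SmG (chr6:86348286-86356310, plus strand), had 23, 9 and 1 reads in WT neurons and 6, 3 and 7 in WT astrocytes, with 11.8 ± 12.0 against 1.76 ± 0.682 CPM (SD, n = 3) and overlap (2.80 ± 0.53, edgeR adjusted p = 1.47e-05). Without neuronal WT library 1, which had the 23 reads, it was 1.71 and not called (edgeR adjusted p = 0.0981). With protein-coding transcripts alone it was 1.75 and not called (edgeR adjusted p = 0.146). *Snrpd1* had 3, 6 and 3 against 2, 6 and 2 reads, or 4.46 ± 1.51 against 1.09 ± 0.741 CPM (2.02 ± 0.74, edgeR adjusted p = 0.042), and the call was lost without WT library 1 or 3 of either fraction, at 1.73 to 2.22. Without WT library 2 of either fraction it had too few reads to be tested. *Lsm4* had 7, 16 and 3 reads in WT neurons (1.68 ± 0.49, edgeR adjusted p = 0.0081) and was 1.01 without neuronal WT library 2 and 1.43 without astrocyte WT library 1, both not called.

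*Eftud2* and *Sf3b3* were the 2 lower members. In this fit 19 of the 41 members, *Eftud2* among them, had no WT neuronal library with 5 reads and passed through the glial fractions. *Eftud2* had 3 reads in WT neurons and 63 in WT astrocytes, a level 6.12 times higher in astrocytes with an exact 95% counting interval of 2.00 to 30.5 (edgeR adjusted p = 0.0076), and the call was lost without neuronal WT library 1. Only 38.5% of its reads were listed under protein-coding transcripts, and with those alone the call was also lost (-1.81, edgeR adjusted p = 0.200). *Sf3b3* was at 408 ± 24.8 CPM in WT astrocytes, 496 ± 131 in WT microglia and 153 ± 35.5 in WT neurons (SD, n = 3), without overlap between neurons and either glial fraction (against astrocytes -1.37 ± 0.31, edgeR adjusted p = 0.00037).

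The lower *Sf3b3* value in neurons lay in the retained-intron transcripts printed above. The one that contains *Gm22193* was at 318 ± 22.0 CPM in WT astrocytes, 366 ± 109 in WT microglia and 93.6 ± 26.0 in WT neurons (SD, n = 3), and the one that overlaps *Snord111* at 86.1 ± 15.2, 124 ± 23.7 and 54.3 ± 15.5 CPM. The protein-coding transcript was at 2.96 ± 0.548, 3.53 ± 0.597 and 3.50 ± 2.18 CPM. With protein-coding transcripts alone, *Sf3b3* was higher in neurons than in astrocytes by 0.23 in WT (edgeR adjusted p = 0.85) and by 0.98 in KIN (edgeR adjusted p = 0.035), whereas all transcripts together gave -1.37 and -1.26.

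**Figure D5:**
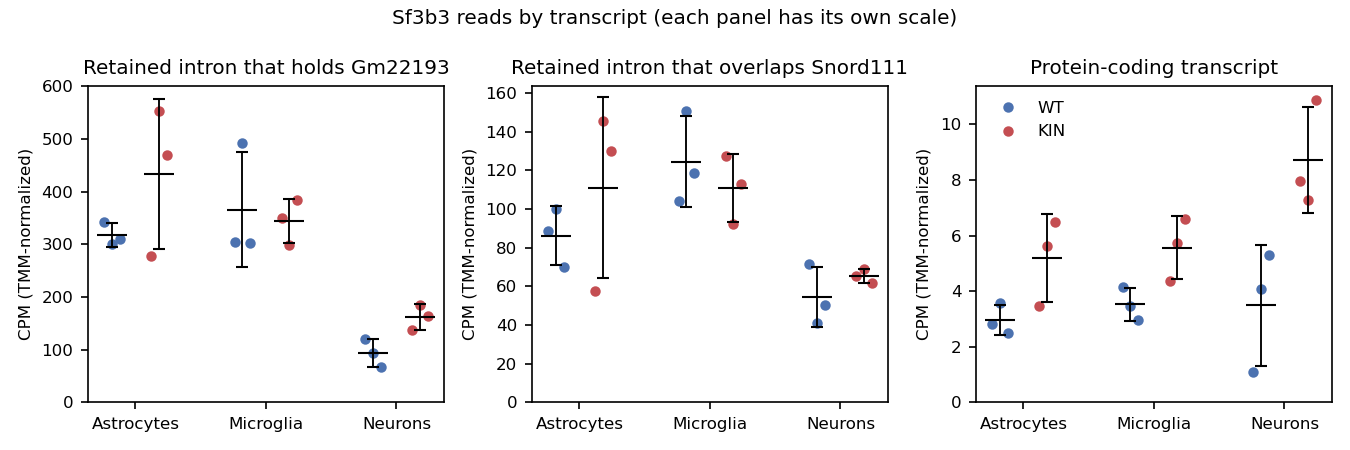
CPM of 3 *Sf3b3* transcripts in each library (points), with mean and SD of 3 libraries (black), WT in blue and KIN in red, each panel on its own scale from 0. Neuronal libraries lie below the glial ones for the transcript that holds *Gm22193*, but not for the protein-coding transcript, at 3.50 CPM in WT and 8.72 CPM in KIN neurons.

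In WT neurons against WT microglia, 1 member was called higher (2.44%, against 5.19% of all genes), *Snrpg*, and 3 were called lower (7.32%, against 11.7%), *Eftud2*, *Sf3b3* and *Sf3b1*. *Snrpg* was 1.56 ± 0.48 (edgeR adjusted p = 0.013) and 0.46 without neuronal WT library 1, or 1.25 without microglia WT library 3, both not called. *Sf3b1*, the SF3b subunit that contacts the branch point, had 10, 6 and 2 reads in WT neurons and 50, 38 and 43 in WT microglia, or 6.54 ± 4.08 and 17.3 ± 2.14 CPM without overlap (-1.33 ± 0.43, edgeR adjusted p = 0.018). It was -1.24 and -1.02, not called, without neuronal WT library 2 or 3. *Eftud2* was 5.82 times higher in microglia by summed reads, 51 to 3, with an exact 95% counting interval of 1.88 to 29.2, and its call was lost without neuronal WT library 1 or 2. With protein-coding transcripts alone, 0 members were called in this contrast.

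In KIN mice, 5 of the 8 Sm core genes were called higher in neurons than in microglia. Of 46 members tested, 8 were called higher in KIN neurons than in KIN microglia (17.4%, against 11.4% of all genes) and 2 lower (4.35%, against 15.2%). Of these 46, 5 had no microglia library with 5 reads and 7 no neuronal one, so nothing is read from these shares. *Snrpe*, which encodes SmE, had 7, 7 and 17 reads in KIN neurons and 4, 2 and 4 in KIN microglia, or 7.07 ± 3.35 and 1.23 ± 0.456 CPM (SD, n = 3), without overlap (2.45 ± 0.55, edgeR adjusted p = 0.00015). With no microglia library at 5 reads, it entered the fit through the neurons, and it was also called without a filter (edgeR adjusted p = 0.00018). *Snrpd2*, which encodes SmD2, had 24, 14 and 28 against 11, 13 and 15 reads, or 15.1 ± 3.39 and 4.74 ± 0.436 CPM (1.62 ± 0.33, edgeR adjusted p = 2.03e-05). *Snrpg* was at 11.7 ± 4.84 and 4.03 ± 1.87 CPM (1.51 ± 0.37, edgeR adjusted p = 0.00047). *Snrpd1* (1.53 ± 0.61) and *Snrpd3* (1.06 ± 0.39) were called with overlap between the fractions. Their calls, and that of *Lsm7*, were lost without neuronal KIN library 1 or 3 or microglia KIN library 3, and also without microglia KIN library 2 for *Snrpd1* and 1 for *Lsm7*, at 0.70 to 1.56. The other 3 were *Lsm4* (1.83 ± 0.37), *Lsm7* (1.13 ± 0.45) and *Prpf19* (1.47 ± 0.32), the last a ubiquitin ligase of the spliceosome that was named after its values were seen. *Lsm4*, *Prpf19*, *Snrpd2*, *Snrpe* and *Snrpg* were called in all 9 fits without 1 library. The lower 2 were *Sf3b1* (-1.09 ± 0.33), lost without neuronal KIN library 1 or 2 (-0.99 and -0.87), and *Sf3b3* (-1.01 ± 0.22), which lay under the fold threshold in 7 of the 9 fits (-0.84 to -1.11 over all 9). *Snrpg* was the 1 higher call in WT and 1 of the 8 in KIN, and the difference between the genotypes was not tested. With protein-coding transcripts alone, *Snrpg* was 0.99 and not called (edgeR adjusted p = 0.18), while *Snrpe* (2.26) and *Snrpd2* (1.79) were called.

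In KIN neurons against KIN astrocytes, 3 members were called higher (6.52%, against 13.2% of all genes), *Snrpe*, *Snrpg* and *Prpf38b*, and 4 lower (8.7%, against 16.9%), *Sf3b3*, *Sf3a3*, *Prpf39* and *Prpf40b*. *Sf3a3* had 1 read in KIN neurons and 16 in KIN astrocytes, a level 8.56 times higher in astrocytes with an exact 95% counting interval of 1.33 to 358.8, and entered the fit through the glial fractions. The last 3 were lost in 6, 4 and 7 of the 9 fits without 1 library, *Prpf38b* without astrocyte KIN library 3 or neuronal KIN library 1 (1.09 and 0.96), and *Sf3b3* without astrocyte KIN library 2 (-0.98). *Snrpe* was higher in neurons by 2.75 ± 0.58 (edgeR adjusted p = 4.10e-05) and *Snrpg* by 1.48 ± 0.37 (edgeR adjusted p = 0.00061), both without overlap. With protein-coding transcripts alone, *Snrpg* was 1.14 and not called (edgeR adjusted p = 0.12). By mean CPM, the neuronal fraction was the highest of the 3 for 15 of the 50 members in WT and 19 in KIN, astrocytes for 16 and 20, and microglia for 19 and 11, given here as counts without a test.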

How the data were processed

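The authors made panRNA-Seq libraries (3′-end tags with unique molecular identifiers, rRNA depletion and added poly(A) tails), trimmed reads with cutadapt 4.6, aligned them to mm39 with Bowtie2 2.4.4 in steps and counted them with HTSeq 2.0.2 without strand, and deposited raw counts per transcript. Columns of the authors' own DESeq2 comparisons (fold changes and p-values) and 36 other per-sample columns were not used. Without strand, reads of overlapping or antisense genes cannot be told apart, and *Snrpn* and *Snrpb*, or *U2af1* and *U2af1l4*, may share reads.

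Here the deposited counts were summed by gene name, and 137 transcripts without a name were kept under their own identifiers. The sums were fitted with edgeR 4.0.16 in R 4.3.3: TMM scaling, a filter of 5 or more reads in 2 or more of the fitted libraries, glmQLFit and glmQLFTest, and Benjamini-Hochberg adjustment over all genes of the fit. The script was tested on simulated data. KIN was compared with WT within each fraction, over all 18 libraries with the fraction as a term, and as a difference between microglia and astrocytes; fractions were compared within each genotype. A group at 3 reads or fewer in every library is given as a ratio of summed reads with an exact conditional binomial 95% interval, which covers counting error only. Loci, biotypes and snoRNA genes come from GENCODE vM39 on GRCm39. The alternatives were DESeq2 1.42.0, its size factors, TMM without the 10 most abundant transcripts, other filters, protein-coding transcripts alone, the replicate number as a block, 1 fit of 18 libraries, adjusted p alone, and leaving out each library.

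The labels call the libraries biological replicates but do not tie a number to an animal, and the fractions come from the same brains, so p-values measure the spread between these libraries. The members and gene lists were chosen with earlier results of these data known. Named are members called in a comparison of KIN with WT, the Sm core and SMN complex, the 3 largest changes each way in each such comparison, the 5 largest called differences each way between WT fractions, 4 methylosome genes and *Atxn2*; others were named after their values were seen. Genes for small nuclear RNAs were not analysed here.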

Additional observations from a re-analysis of the deposited data

Results flagged for a closer look

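Every KIN library of *Lsm4* lay above every WT library in astrocytes and below every WT library in microglia, which is what singled it out, and the microglia difference was not called (-0.60 ± 0.37, edgeR adjusted p = 0.58). The KIN effect in microglia minus that in astrocytes was -1.82 ± 0.54 on the log2 scale (edgeR adjusted p = 0.0715), which was not called either. Leaving out 1 library gave -2.06 to -1.56 with adjusted p of 0.0441 to 0.195.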

How the results depend on the processing

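Fits that left out 1 library each called 0 to 6 members for KIN against WT in astrocytes (3 with all libraries), 0 to 1 over all libraries together, with the fraction as a term, (1), 0 to 1 in microglia (0), 0 to 1 for the difference between the KIN effects (0), 1 to 2 for WT microglia against astrocytes (1), 2 to 5 for WT neurons against astrocytes (5) and 2 to 5 against microglia (4), and in KIN 3 to 6 for neurons against astrocytes (7) and 6 to 11 against microglia (10). For KIN microglia against astrocytes, the fits that left out 1 library called 5 to 9 members (6 with all libraries). DESeq2 called 0 members in astrocytes and 0 over all libraries, 3 for KIN neurons against astrocytes and 5 against microglia. The filter at a mean of 10 counts gave 0 over all libraries, where *Smn1* was not tested, 2 for WT microglia against astrocytes, 3 for WT neurons against astrocytes and 3 for KIN neurons against astrocytes, and no filter gave 0 over all libraries. Adjusted p alone gave 3 for WT and 10 for KIN microglia against astrocytes. Protein-coding transcripts alone gave 0 over all libraries, again without *Smn1*, 2 and 0 for WT neurons against astrocytes and microglia, and 4 for KIN neurons against astrocytes, and turned the direction of *Sf3b3* in neurons against astrocytes (0.23 in WT, 0.98 in KIN) and against microglia in KIN (0.73), where the retained-intron transcripts were left out by construction. The cause of the other changes was not tested.

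With the replicate number as a block, 5 members were called in astrocytes, 0 over all libraries (*Smn1* 1.59, edgeR adjusted p = 0.0509) and 1 (*Lsm4*) for the difference between the KIN effects. Between fractions, the block ended the calls of *Snrpd1* in WT neurons against astrocytes (edgeR adjusted p = 0.0600) and in KIN neurons against microglia (0.0606), and of *Sf3a3* (0.0568) and *Prpf40b* (-0.99, under the fold threshold) in KIN neurons against astrocytes, and no other member's call. The numbers share no pairing in the labels, and same-numbered WT and KIN libraries deviated together with correlations of -0.14 to 0.09 (9 pairs, 0 over 0.1), and same-numbered fractions of 1 genotype with -0.07 to 0.25 (18 pairs, 2 over 0.1).

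The members' median for KIN neurons against astrocytes, -0.06, changed sign with the processing (0.14 with protein-coding transcripts alone). Over 60 named values and 920 alternatives, 785 kept direction and side of the threshold, 125 lost the call, 7 gained one and 3 turned. Depth limits WT neurons most.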
